A study of Mus musculus with 16 samples.

Results

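The 29 genes described here make, control or carry the products of sterol and fatty acid synthesis, and they were chosen by name as genes that the transcription factor SREBP drives, not by their own measured values. They are 29 of the 54532 genes in the deposited tables, and all 29 were among the 15469 genes expressed well enough to be tested. RNA came from macrophages that were grown from the tibial bone marrow of wild-type C57BL/6J mice aged 2 to 3 months. CSF-1, the growth factor on which macrophages depend, was given at 12 ng/ml over the first 24 h, in 15% serum, and at 120 ng/ml over the next 48 h. The cells were passaged 1 time onto dishes with a fibronectin coat (10 µg/ml) or onto normal dishes, and at confluence received for 24 h either IgG or anti-ITGAV, a neutralizing antibody to αV integrin (10 µg/ml). The 16 libraries formed 4 groups of 4, named uncoated_IgG, uncoated_antiITGAV, fibronectin_IgG and fibronectin_antiITGAV, so every group carried an antibody and none was left without one. The series asks what αV integrin does in macrophages of the heart after infarction, and these are cultured marrow cells of wild-type mice. No label ties a replicate number to its own mouse or dish, so the p-values measure the spread between these libraries, which may be technical.

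Cells make cholesterol from acetyl-CoA through mevalonate, squalene and lanosterol, and make fatty acids from the same precursor through malonyl-CoA. SREBP proteins are held in the endoplasmic reticulum by SCAP and INSIG while sterols are plentiful, and when sterols fall SCAP carries them to the Golgi, where they are cut and released to switch on genes of both routes. The enzyme encoded by Ch25h makes the oxysterol 25-hydroxycholesterol, which binds INSIG and keeps SREBP in place, and macrophages make this oxysterol in inflammatory states. The comparisons asked whether the genes of these routes differed with the fibronectin coat, with the antibody, and with the antibody differently on each coat.

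The promoters of 3 members are shown because SREBP acts there, together with partners that bind the CCAAT box. The sequences are the bases before the RefSeq start on GRCm38.p6, and RefSeq windows were matched for 23 of the 29 members (29 windows). Not matched were Fdps, Fdft1, Sqle, Stard4, Scd1 and Scd2. Capitals mark matches to the sterol regulatory element TCACNCCAC and to CCAAT on either strand, where ATTGG is CCAAT read on the other strand, and the letters CCAATTGG hold 2 overlapping matches. Hmgcs1 is shown as the member with a match to the element, Hsd17b7 and Fasn as members that were higher on fibronectin.
Hmgcs1 promoter, chr13:119690101-119690350, plus strand: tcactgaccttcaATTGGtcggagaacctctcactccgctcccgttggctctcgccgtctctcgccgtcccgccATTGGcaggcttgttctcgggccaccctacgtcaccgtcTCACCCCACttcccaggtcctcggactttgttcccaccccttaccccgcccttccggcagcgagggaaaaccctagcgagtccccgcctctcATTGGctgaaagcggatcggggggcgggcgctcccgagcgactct
Hsd17b7 promoter, chr1:169969242-169969455, minus strand: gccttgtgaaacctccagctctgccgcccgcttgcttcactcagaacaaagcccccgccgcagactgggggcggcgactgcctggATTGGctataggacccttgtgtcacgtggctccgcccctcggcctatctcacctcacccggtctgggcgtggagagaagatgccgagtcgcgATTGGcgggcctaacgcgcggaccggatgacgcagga
Fasn promoter, chr11:120824548-120824797, minus strand: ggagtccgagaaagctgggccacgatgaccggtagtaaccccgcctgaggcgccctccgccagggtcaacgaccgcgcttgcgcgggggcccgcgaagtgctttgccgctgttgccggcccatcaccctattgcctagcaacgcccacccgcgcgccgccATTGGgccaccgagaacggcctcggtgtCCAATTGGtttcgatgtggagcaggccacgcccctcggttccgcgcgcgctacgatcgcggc

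In the 250 bases before the start, the element matched in 1 of the 29 member windows (3.45%), 137 bases before the start of Hmgcs1, against 1.05% of all 32851 windows of that length. CCAAT matched in 18 of the 29 member windows (62.1%) against 33.8% of all windows. Hmgcs1, Hsd17b7 and Fasn each had 3 CCAAT matches, and the third match of Hsd17b7, 12 bases before its RefSeq start, lies in bases that the deposited gene model counts as gene and that are left out of the printed sequence. A match is a string of letters, not a shown binding site. Only these exact letters in these 250 bases were searched, so a window without a match is not shown to lack an element.

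The libraries held 27995035 to 43413650 counts. Where a gene has 0 counts, up to 3 remain possible, which is 0.0691 to 0.107 CPM (counts scaled to the same total in every library) and covers counting error only. The library fibronectin_antiITGAV 3 stood apart: its mitochondrial share was 3.46%, where the other 15 libraries had 1.24 to 1.53%, and its log2 levels fell with transcript GC content across genes (Spearman's rho -0.703, against -0.296 to 0.546). Many calls and named changes under anti-ITGAV are given with and without it. For Hsd17b7 and Cyp51 only the size of the averaged change is given both ways. The changes of some other genes, among them Sc5d and Stard4, are given only with it. Macrophage markers were high in all groups (Lyz2 averaged 23420 CPM over the 16 libraries), while the 5 adipocyte markers summed to at most 0.2193 CPM in any library, and those of T and NK cells (4 genes) to at most 0.4766. Markers of other marrow cells differed between the groups: the 8 neutrophil markers summed, on uncoated dishes, to a median of 436.6 CPM with IgG (range 416.8 to 442.1) and 324 with anti-ITGAV (298.3 to 354.5), and on fibronectin to 378.6 with IgG (317.5 to 410.9) and 217.3 with anti-ITGAV (204.5 to 354.6). The 4 B lymphocyte markers summed to medians of 65.53 and 71.78 CPM on uncoated dishes (range 58.01 to 75.48) and 35.69 and 33.58 on fibronectin (range 27.99 to 41.98). The 5 mast cell and basophil markers summed to medians of 27.23, 18.66, 15.02 and 9.735 CPM and the 6 fibroblast markers to 13.17, 10.54, 8.189 and 5.927 CPM in the same group order. The part of these cells in the values below was not tested, and in bulk RNA fewer cells of a type and less RNA per cell cannot be told apart.

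On the length-corrected FPKM scale the members spanned a wide range of levels. In uncoated_IgG the highest was Acly, which makes cytosolic acetyl-CoA from citrate, at 49.4 ± 2.18 FPKM (SD, n = 4), followed by Insig1, the sterol-sensing brake on SREBP, at 43.3 ± 1.95. Next came the desaturase gene Scd2 at 34.6 ± 3.398 FPKM and Srebf2, which encodes the SREBP that acts mainly on sterol genes, at 31.5 ± 2.18, and these neighbours overlapped in their spread. Ebp, the sterol isomerase, stood at 21.8 ± 1.20 FPKM. Below Ebp in the order came Hmgcs1 at 16.5 ± 1.90, Mvd at 16 ± 0.718, Cyp51 at 13.96 ± 1.01, Stard4 at 13.2 ± 1.32, Sqle at 12.4 ± 0.694, Msmo1 at 12.0 ± 0.314 and Fasn at 11.45 ± 1.17 FPKM. Each of these overlapped a neighbour in its spread. The lowest were Tm7sf2, a sterol reductase gene, at 1.63 ± 0.149 FPKM and Fdps, which encodes the enzyme that makes farnesyl diphosphate, at 0.503 ± 0.229. Fdps held only 40 to 156 counts in a library. The sequences of processed copies of a gene can draw its reads elsewhere, and how reads that match several genes were counted is not given in the sources used here, so the level of Fdps is uncertain. The 1 pseudogene of Fdps found by its description, AC147983.1, had a mean of 0 CPM. Whether reads were lost to other copies, or left uncounted, was not tested. Fdft1 overlaps the very abundant Ctsb on the opposite strand (17900 CPM) and Cyp51 overlaps Akap9 (49.1 CPM). Whether counting used strand is not given either, so the values of Fdft1 and Cyp51 may include reads of those neighbours. Tm7sf2 overlaps the expressed gene Vps51 on the same strand, where counting by strand would not separate their reads. The values of Tm7sf2 may therefore include reads of Vps51 whether or not strand was used.

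With IgG present, the fibronectin coat was accompanied by a lower level of Scd1, the stearoyl-CoA desaturase gene, and by no sterol enzyme past the threshold. A gene was called when edgeR's quasi-likelihood F test gave it a p under 0.05 after Benjamini-Hochberg adjustment over all 15469 genes. By that rule 0 of the 29 members were called higher and 1 lower on fibronectin under IgG, or 3.45%. The background was 3.79% of all genes called (2.37% higher, 1.42% lower), so the members' share was near that of all genes. Their median log2 change was -0.01 against 0.00 over all genes, and 7 members (6 higher, 1 lower) had an unadjusted p under 0.05, as did 15.2% of all genes. DESeq2 called 3 members higher, and 1059 genes in all where edgeR called 586. Without fibronectin_antiITGAV 3, which is in neither of these groups but shares the estimate of spread, 4 members were called higher (Sqle, Cyp51, Hsd17b7 and Fasn) and 1 lower (Scd1), against a background of 8.4% (5.5% higher, 2.91% lower).

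With anti-ITGAV present, 2 members rose on fibronectin, Sqle and Hsd17b7, and none was called lower. That is 6.9% of the members against 5.66% of all genes (2.84% higher, 2.83% lower), with a median log2 change of 0.04 for the members and 0.01 for all genes. Without fibronectin_antiITGAV 3 these 2 genes and Fasn were called higher, against a background of 6.17% (3.04% higher, 3.13% lower). Averaged over both antibodies, 8 libraries against 8, 5 members rose (Acat2, Sqle, Cyp51, Hsd17b7 and Fasn) and Scd1 fell. These 6 are 20.7% of the members, against 11.8% of all genes (6.58% higher, 5.26% lower), while the members' median log2 change was 0.01 and that of all genes 0.00. Without fibronectin_antiITGAV 3, 6 members were called higher (the same 5 and Msmo1) and 2 lower (Scd1 and Scd2), against a background of 15.7% (8.91% higher, 6.75% lower). The comparisons under IgG and under anti-ITGAV share no library, but the averaged one uses the libraries of both.

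**Figure D1:**
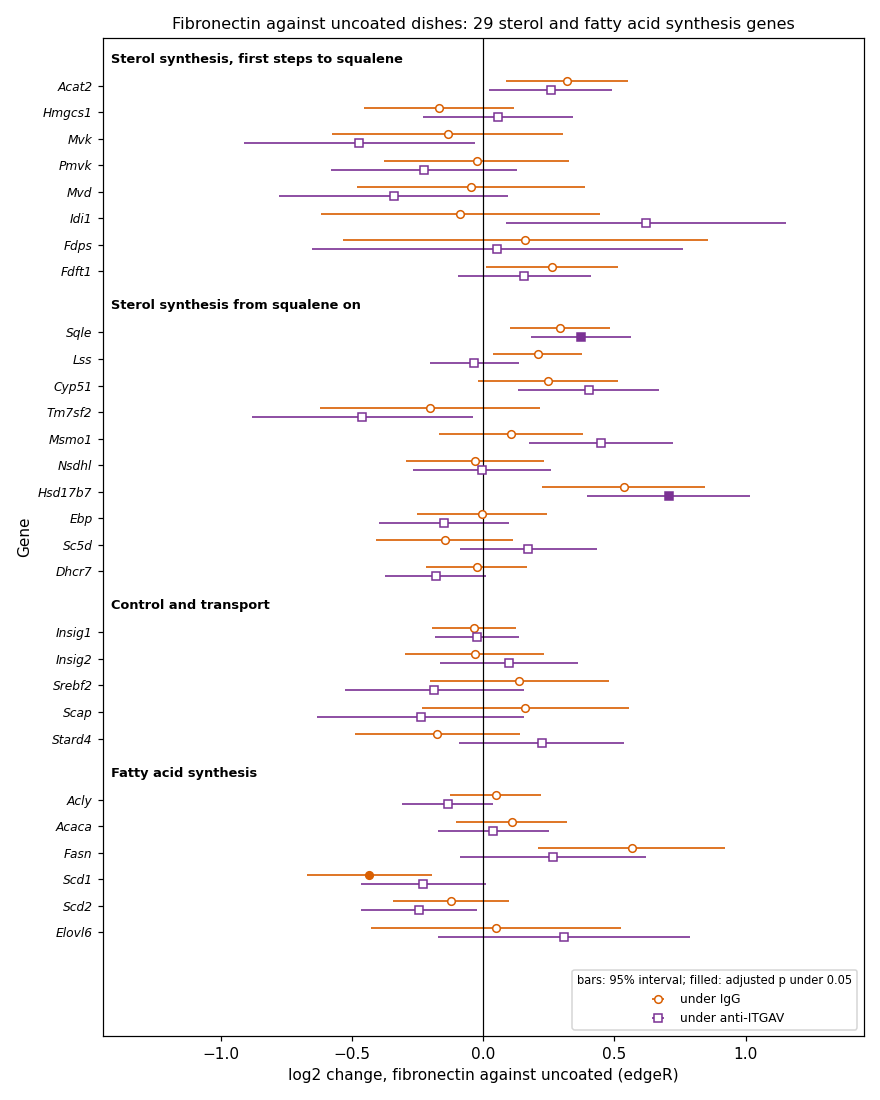
Log2 change, fibronectin against uncoated dishes, for each of the 29 genes by role, under IgG (circles) and under anti-ITGAV (squares), from edgeR. Bars are 95% intervals, and filled symbols mark an adjusted p under 0.05: Scd1 under IgG, Sqle and Hsd17b7 under anti-ITGAV.

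Among the genes for the first steps, from acetyl-CoA to squalene, 1 of 8 passed the test (6.58% of all genes were called higher in the same comparison), Acat2, the cytosolic thiolase gene that joins acetyl-CoA units, and only in the average over both antibodies. Acat2 stood at 21.9, 23.0, 22.8 and 22.3 CPM in uncoated_IgG and at 26.1, 31.1, 30.4 and 24.7 in fibronectin_IgG. All 4 fibronectin_IgG libraries were above all 4 uncoated_IgG libraries, as for 7.89% of all genes. Under anti-ITGAV it stood at 27.7, 20.8, 25.5 and 22.0 CPM on uncoated dishes and at 25.0, 28.9, 31.1 and 29.8 on fibronectin, where the groups overlapped. Its log2 change was 0.32 ± 0.11 (SE) under IgG, 0.26 ± 0.11 under anti-ITGAV and 0.29 ± 0.08 averaged, with adjusted p-values (edgeR) of 0.136, 0.184 and 0.0219. Without fibronectin_antiITGAV 3 the averaged change was 0.27 and was still called. The averaged call was lost without any 1 of 7 libraries (uncoated_IgG 1, 2 or 3, uncoated_antiITGAV 2, fibronectin_IgG 3, fibronectin_antiITGAV 2 or 4).

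Hmgcs1, whose product makes the HMG-CoA that enters the mevalonate route and whose promoter holds the match to the sterol regulatory element shown above, did not pass. It stood at 83.8, 80.4, 78.3 and 64.4 CPM in uncoated_IgG and at 78.4, 52.4, 63.2 and 78.8 in fibronectin_IgG, with overlap between the groups. With anti-ITGAV it was at 66.2, 81.9, 67.6 and 82.9 CPM on uncoated dishes and at 73.6, 77.03, 90.8 and 69.2 on fibronectin, again with overlap. Its log2 change was -0.17 ± 0.14 under IgG (adjusted p 0.646, edgeR) and -0.06 ± 0.10 averaged (adjusted p 0.778). Fdft1, the squalene synthase gene, stood at 27.7, 26.3, 26.2 and 28.6 CPM in uncoated_IgG and at 30.4, 34.8, 36.8 and 28.4 in fibronectin_IgG. The anti-ITGAV libraries had 34.9, 30.8, 28.6 and 26.8 CPM on uncoated dishes and at 29.1, 30.8, 41.2 and 33.7 on fibronectin. The groups of Fdft1 overlapped under both antibodies, and its log2 change of 0.26 ± 0.12 under IgG did not pass (adjusted p 0.305, edgeR).

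The other 5 genes of the first steps did not pass either. The log2 change under IgG and under anti-ITGAV was -0.14 and -0.47 for Mvk (mevalonate kinase), -0.03 and -0.23 for Pmvk (phosphomevalonate kinase), and -0.05 and -0.34 for Mvd (mevalonate diphosphate decarboxylase). For Idi1, the isomerase of the isoprene units, it was -0.09 and 0.62, and for Fdps it was 0.16 and 0.05. Without fibronectin_antiITGAV 3 the values under anti-ITGAV were -0.27 for Mvk, -0.05 for Pmvk, -0.12 for Mvd, 0.31 for Idi1 and -0.09 for Fdps. In it Mvk was at 9.312 CPM against 18.85 to 20.74 in the other 3 libraries of its group, Mvd at 11.06 against 24.66 to 27.54, and Idi1 at 40.66 against 17.61 to 23.94.

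From squalene to cholesterol, 3 of 10 genes rose on fibronectin in the average over both antibodies, in which 6.58% of all genes were called higher. Sqle, squalene epoxidase, which catalyses the first oxygen-requiring step of the route, stood at 64.9, 68.1, 72.4 and 73.9 CPM in uncoated_IgG and at 76.9, 83.4, 91.3 and 90.5 in fibronectin_IgG. In the presence of anti-ITGAV it measured 74.6, 72.8, 69.3 and 62.6 CPM on uncoated dishes and at 84.9, 88.5, 102 and 85.7 on fibronectin. All 8 fibronectin libraries were above all 8 uncoated libraries, as for 2.01% of all genes. Its log2 change was 0.29 ± 0.09 under IgG, 0.37 ± 0.09 under anti-ITGAV and 0.33 ± 0.06 averaged, with adjusted p-values (edgeR) of 0.0877, 0.0226 and 0.00225. Without fibronectin_antiITGAV 3 the changes were 0.29, 0.31 and 0.30. Leaving out uncoated_antiITGAV 2, 3 or 4 ended the call under anti-ITGAV, and a fit of the 8 libraries of that comparison alone called neither Sqle nor Hsd17b7.

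Hsd17b7 encodes the 3-ketosteroid reductase that works in the removal of the methyl groups at carbon 4 of the sterol ring. It stood at 16.4, 12.6, 14.1 and 15.8 CPM in uncoated_IgG and at 24.2, 20.5, 19.6 and 21.1 in fibronectin_IgG. Under anti-ITGAV it stood at 18.7, 13.9, 15.4 and 12.8 CPM on uncoated dishes and at 22.3, 23.5, 32.3 and 21.2 on fibronectin. Here too all 8 fibronectin libraries were above all 8 uncoated libraries. The group means were 14.71 ± 1.705 and 15.19 ± 2.54 CPM on uncoated dishes and 21.33 ± 1.986 and 24.8 ± 5.071 on fibronectin (SD, n = 4 each). The log2 change of Hsd17b7 was 0.54 ± 0.15 under IgG (adjusted p 0.0516, edgeR), 0.71 ± 0.15 under anti-ITGAV (adjusted p 0.00908) and 0.62 ± 0.10 averaged (adjusted p 0.000696). Without fibronectin_antiITGAV 3 the averaged change was 0.545 (adjusted p 0.000227, edgeR). The call under anti-ITGAV was kept without each of the 16 libraries, and with a GC offset and without fibronectin_antiITGAV 3 together it was lost (0.44, adjusted p 0.122).

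Cyp51, the lanosterol demethylase gene, stood at 56.4, 61.1, 65.6 and 66.4 CPM in uncoated_IgG and at 76.0, 75.8, 75.3 and 68.9 in fibronectin_IgG. With anti-ITGAV it was at 71.2, 63.7, 65.5 and 59.1 CPM on uncoated dishes and at 74.7, 73.2, 117 and 77.8 on fibronectin. Within each antibody the groups did not overlap, as for 7.89% of all genes under IgG and 6.55% under anti-ITGAV, though uncoated_antiITGAV 1 lay above fibronectin_IgG 4. Its log2 change was 0.25 ± 0.13 under IgG, 0.40 ± 0.13 under anti-ITGAV and 0.32 ± 0.09 averaged, and only the last passed (adjusted p 0.384, 0.0745 and 0.0249, edgeR). Leaving out the fibronectin_antiITGAV library at 117 CPM gave an averaged change of 0.23, still called, and leaving out uncoated_IgG 1 or 2, uncoated_antiITGAV 2 or 4 or fibronectin_IgG 1 ended the call.

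Lss, which closes squalene epoxide into lanosterol, stood at 31.0, 31.0, 32.3 and 35.6 CPM in uncoated_IgG and at 34.8, 39.7, 37.0 and 38.5 in fibronectin_IgG. The anti-ITGAV libraries had 37.3, 33.8, 34.8 and 33.5 CPM on uncoated dishes and at 33.4, 35.5, 34.1 and 33.3 on fibronectin. The groups overlapped under both antibodies, and the log2 change of 0.21 ± 0.08 under IgG (adjusted p 0.2, edgeR) stood beside -0.03 under anti-ITGAV. Sc5d, the lathosterol desaturase gene, stood at 31.0, 32.8, 32.9 and 26.9 CPM in uncoated_IgG and at 31.9, 21.6, 27.2 and 31.1 in fibronectin_IgG. In the presence of anti-ITGAV it measured 27.2, 31.3, 28.7 and 28.2 CPM on uncoated dishes and at 33.4, 32.8, 36.6 and 27.2 on fibronectin, with overlap on both sides and a log2 change of -0.15 and 0.17.

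Msmo1, the sterol methyl oxidase gene that works on the same methyl groups as Hsd17b7, had a log2 change of 0.10 under IgG and 0.45 ± 0.13 under anti-ITGAV (adjusted p 0.0515, edgeR). In fibronectin_antiITGAV 3 it was at 137.1 CPM against 85.31 to 88.27 in the other 3 libraries of its group. Without that library the change under anti-ITGAV was 0.25 (adjusted p 0.0607) and the averaged change 0.18 (adjusted p 0.0258), with an SE of 0.05 in place of 0.09. Tm7sf2 had log2 changes of -0.20 and -0.46, and the reductase gene Dhcr7, which carries out the last step to cholesterol, -0.03 and -0.18, and neither passed. For Ebp the changes were 0.00 and -0.15, and for Nsdhl, the decarboxylating dehydrogenase gene, -0.03 and 0.00. Without fibronectin_antiITGAV 3 the changes under anti-ITGAV were -0.28 for Tm7sf2, -0.17 for Dhcr7, -0.05 for Ebp and -0.14 for Nsdhl.

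**Figure D2:**
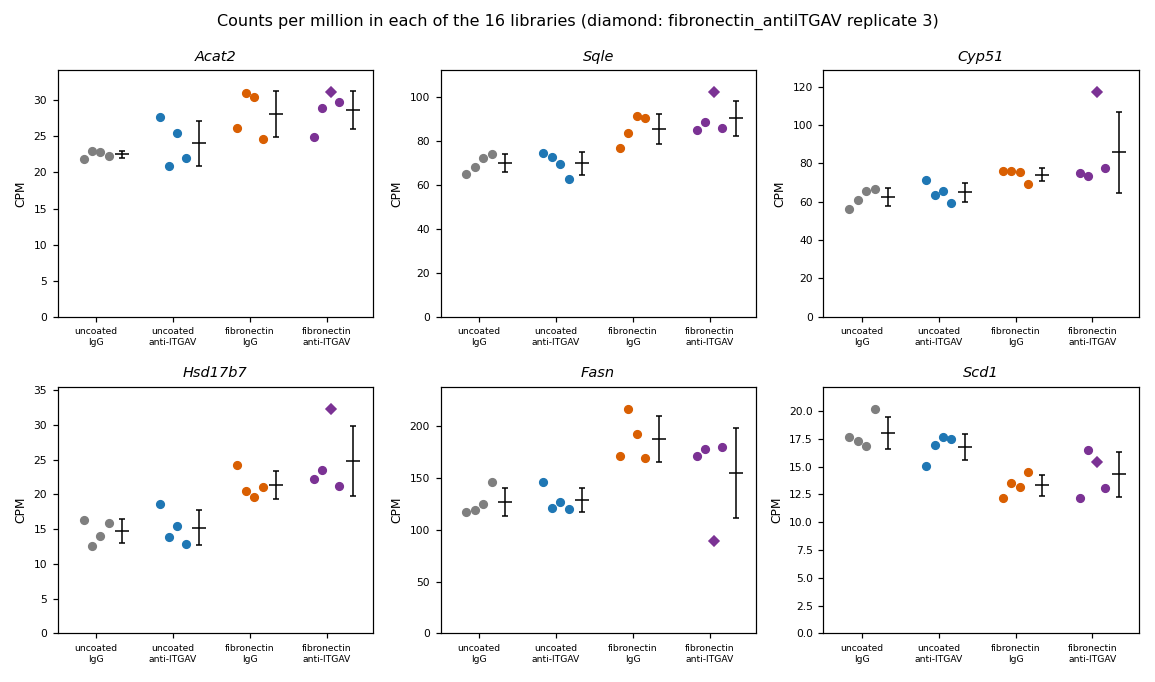
CPM of the 6 genes that passed the test in the average over both antibodies, 1 point per library, by group, with the mean and SD (n = 4) in black. The diamond is fibronectin_antiITGAV replicate 3, which is the highest of its group for Acat2, Sqle, Cyp51 and Hsd17b7 and the lowest for Fasn; Scd1 is lower on fibronectin and the other 5 are higher by the group means.

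No general fall or rise of the sterol enzymes was measured, and for most of them the interval bounds the change in both directions. Under IgG the 95% interval of 16 of the 18 sterol enzymes lay above a 1.5-fold fall, all but Idi1 and Tm7sf2. In the average over both antibodies this held for 16 of 18, all but Mvk and Tm7sf2, and under anti-ITGAV for 14 of 18, all but Mvk, Mvd, Fdps and Tm7sf2. The interval lay below a 1.5-fold rise for 16 of 18 under IgG, 15 of 18 in the average and 13 of 18 under anti-ITGAV. Over both antibodies 4 of the 18 enzymes rose and 0 fell past the threshold, where 6.58% of all genes were called higher and 5.26% lower.

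None of the 5 genes of control and transport passed in any coating comparison. On uncoated dishes Insig1 stood at 135.6 ± 6.578 CPM with IgG and 141.4 ± 4.31 with anti-ITGAV, and on fibronectin at 132.3 ± 4.977 and 139.1 ± 11.84 (SD, n = 4 each). Its log2 change on fibronectin was -0.03 ± 0.08 under IgG and -0.02 ± 0.08 under anti-ITGAV, among the most narrowly measured of the members. Srebf2 had log2 changes of 0.14 and -0.19, Scap, the escort of SREBP, 0.16 and -0.24, and Insig2 -0.03 and 0.10. The changes under anti-ITGAV rested on fibronectin_antiITGAV 3, and without it they were -0.01 for Srebf2, -0.03 for Scap and -0.05 for Insig2. Under IgG and in the average, the 95% intervals of all 5 lay within a 1.5-fold change in either direction.

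Stard4, which encodes a carrier of cholesterol between membranes, stood at 76.3, 78.9, 78.6 and 63.9 CPM in uncoated_IgG and at 76.8, 47.5, 62.3 and 76.9 in fibronectin_IgG. Under anti-ITGAV it stood at 50.8, 68.4, 59.2 and 76.7 CPM on uncoated dishes and at 81.3, 69.9, 79.4 and 66.7 on fibronectin. The groups overlapped, with a log2 change of -0.18 ± 0.15 and 0.22 ± 0.15.

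In the fatty acid route, Fasn and Scd1 moved in opposite directions. Fasn, fatty acid synthase, builds palmitate and stood at 117, 119, 125 and 147 CPM in uncoated_IgG and at 172, 217, 193 and 170 in fibronectin_IgG. With anti-ITGAV it was at 146, 122, 127 and 120 CPM on uncoated dishes and at 172, 178, 89.75 and 180 on fibronectin. Of the 8 fibronectin libraries 7 were above all 8 uncoated ones, and fibronectin_antiITGAV 3 was below all of them. The log2 change was 0.57 ± 0.17 under IgG (adjusted p 0.073, edgeR), 0.27 ± 0.17 under anti-ITGAV (0.361) and 0.42 ± 0.12 averaged (0.0295). Without that library it was 0.57 (adjusted p 0.000737), 0.46 (0.00903) and 0.51, and all 3 were called. The averaged call was lost when any of 11 other libraries was left out instead.

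Scd1, whose product puts a double bond into stearate and palmitate, stood at 17.7, 17.3, 16.9 and 20.2 CPM in uncoated_IgG and at 12.2, 13.5, 13.1 and 14.5 in fibronectin_IgG. Every fibronectin_IgG library was below every uncoated_IgG library, as for 5.26% of all genes. The anti-ITGAV libraries had 15.0, 16.9, 17.7 and 17.4 CPM on uncoated dishes and at 12.2, 16.5, 15.4 and 13.1 on fibronectin, with overlap. Its log2 change was -0.43 ± 0.11 under IgG (adjusted p 0.0408, edgeR), -0.23 ± 0.11 under anti-ITGAV (0.245) and -0.33 ± 0.08 averaged (0.0105). The call under IgG was lost without any 1 of 11 libraries (uncoated_IgG 1 to 4, uncoated_antiITGAV 2 to 4, fibronectin_IgG 1 to 4), while the averaged call was kept without each of the 16 in turn (-0.35 without fibronectin_antiITGAV 3).

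Scd2, a related desaturase gene and the more abundant of the 2 on the FPKM scale, stood at 171, 192, 185 and 218 CPM in uncoated_IgG and at 157, 191, 186 and 168 in fibronectin_IgG. In the presence of anti-ITGAV it measured 228, 194, 209 and 181 CPM on uncoated dishes and at 154, 166, 199 and 166 on fibronectin. Groups overlapped, with log2 changes of -0.12 ± 0.11 and -0.24 ± 0.11 and an averaged change of -0.18 ± 0.07 (adjusted p 0.13, edgeR). Leaving out fibronectin_antiITGAV 3 gave -0.22 (adjusted p 0.0242). Acly had log2 changes of 0.05 and -0.14, Acaca, the acetyl-CoA carboxylase gene, 0.11 and 0.04, and Elovl6, which lengthens palmitate, 0.05 and 0.31, and none of these passed. Without fibronectin_antiITGAV 3 the changes under anti-ITGAV were -0.08 for Acly, 0.12 for Acaca and 0.27 for Elovl6.

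Ch25h rose on fibronectin under both antibodies, with no sterol enzyme called lower in either comparison. The rise was known from earlier results of these data when the comparisons were chosen, so its p-values are no independent support. Ch25h stood at 0.5639, 0.4206, 0.4237 and 0.7114 CPM in uncoated_IgG and at 4.38, 4.324, 4.107 and 5.457 in fibronectin_IgG, with counts of 12 to 31 and 130 to 179. In uncoated_antiITGAV it stood at 1.281, 0.9113, 0.794 and 0.4661 CPM and in fibronectin_antiITGAV at 3.598, 4.285, 6.782 and 5.271. No fibronectin library overlapped an uncoated one. The log2 change was 3.08 ± 0.29 under IgG (adjusted p 2.03e-05, edgeR) and 2.53 ± 0.27 under anti-ITGAV (adjusted p 8.08e-05), and without fibronectin_antiITGAV 3 it was 3.08 and 2.35. The 18 sterol enzymes in the same 8 libraries under IgG had changes between -0.20 and 0.54. Whether the rise of Ch25h bears on these enzymes was not tested. Only RNA was measured, so the level of its protein, the oxysterol it makes and the release of SREBP are not known.

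Among the 10 tested of 12 oxysterol and LXR genes, which cover oxysterol metabolism and the targets of the oxysterol receptor LXR, Ch25h was the 1 that rose and 4 fell in each coating comparison. Of all genes, 2.37%, 2.84% and 6.58% were called higher and 1.42%, 2.83% and 5.26% lower under IgG, under anti-ITGAV and averaged. The cholesterol exporter gene Abca1 fell by 0.93 on the log2 scale under IgG and by 0.74 under anti-ITGAV (adjusted p 0.00953 and 0.0289, edgeR), the second of which was lost without fibronectin_antiITGAV 3 (-0.66, adjusted p 0.111). Abcg1, another exporter gene, fell by 0.52 and 0.71, Mylip, which encodes a ubiquitin ligase under LXR control, by 0.37 and 0.41, and Cyp27a1, the sterol hydroxylase gene, by 0.69 and 0.95. As background, LXR is also known to act on Scd1 and Srebf1. Srebf1 had log2 changes of 0.17 and -0.22 that did not pass, and the second was 0.03 without fibronectin_antiITGAV 3.

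Of 20 other enzymes and helpers of the same routes, 0 rose and 1 fell under each antibody, Lpin1, which encodes a phosphatidate phosphatase, by 0.55 and 0.60 on the log2 scale. The background under IgG and under anti-ITGAV was 2.37% and 2.84% of all genes higher, and 1.42% and 2.83% lower. Averaged over both antibodies Acss2, the acetyl-CoA synthetase gene, also fell by 0.36 (adjusted p 0.0375, edgeR), and Me1, the cytosolic malic enzyme gene that yields NADPH, rose by 0.36 (adjusted p 0.0134), which without fibronectin_antiITGAV 3 was 0.26 (adjusted p 0.00128). None of the 9 other regulators of SREBP passed, and the smallest unadjusted p under IgG was that of Rnf145, a ligase gene, with a log2 change of 0.15. Of 8 proliferation genes 0 rose under IgG, 2 under anti-ITGAV (Pcna by 0.46 and Rrm2 by 0.43) and 3 in the average, and without fibronectin_antiITGAV 3 these counts were 3, 2 and 3, with changes under anti-ITGAV of 0.26 for Pcna and 0.31 for Rrm2. In the same order 2.37%, 2.84% and 6.58% of all genes were called higher, and 5.5%, 3.04% and 8.91% without that library. Neutrophil markers were called lower on fibronectin for 0 of 8 under IgG, 5 of 8 under anti-ITGAV and 6 of 8 in the average. The share of all genes called lower was 1.42%, 2.83% and 5.26%. The part of proliferating cells or of neutrophils in the values of the 29 genes was not tested.

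The antibody moved none of the 29 genes past the threshold on either coat. On uncoated dishes 0 of 29 were called, against 0.0129% of all genes (2 of 15469), and 0 of 29 had an unadjusted p under 0.05 (470 of all genes, 3.04%). On fibronectin 0 of 29 were called, also against 0.0129% of all genes, and 1 had an unadjusted p under 0.05 (720 of all genes, 4.65%), by edgeR. DESeq2 and the other settings also called 0 members. The members' median log2 change, anti-ITGAV against IgG, was 0.02 on uncoated dishes and -0.04 on fibronectin.

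The gene with that p on fibronectin was Msmo1, at 83.22, 70.91, 82.11 and 84.51 CPM in fibronectin_IgG and at 86.35, 88.27, 137.1 and 85.31 in fibronectin_antiITGAV. Its groups did not overlap, as for 1.05% of all genes in that direction, and the log2 change of 0.31 ± 0.13 had an adjusted p of 0.721 (edgeR) and became 0.11 without fibronectin_antiITGAV 3. The means of Sqle were 69.84 ± 4.087 CPM with IgG and 69.83 ± 5.306 with anti-ITGAV on uncoated dishes, and 85.51 ± 6.762 and 90.31 ± 7.976 on fibronectin (SD, n = 4 each), differences within their spread. Scd1 stood at 18.01 ± 1.48 and 16.76 ± 1.185 CPM on uncoated dishes and at 13.33 ± 0.9458 and 14.29 ± 2.011 on fibronectin, in the same order. The 95% interval of 26 of the 29 members lay within a 1.5-fold change in either direction on uncoated dishes, all but Idi1, Fdps and Elovl6, and that of 21 of 29 on fibronectin. Ch25h had an antibody change of 0.68 on uncoated dishes and 0.13 on fibronectin, neither past the threshold (adjusted p 0.988 for the first, edgeR).

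**Figure D3:**
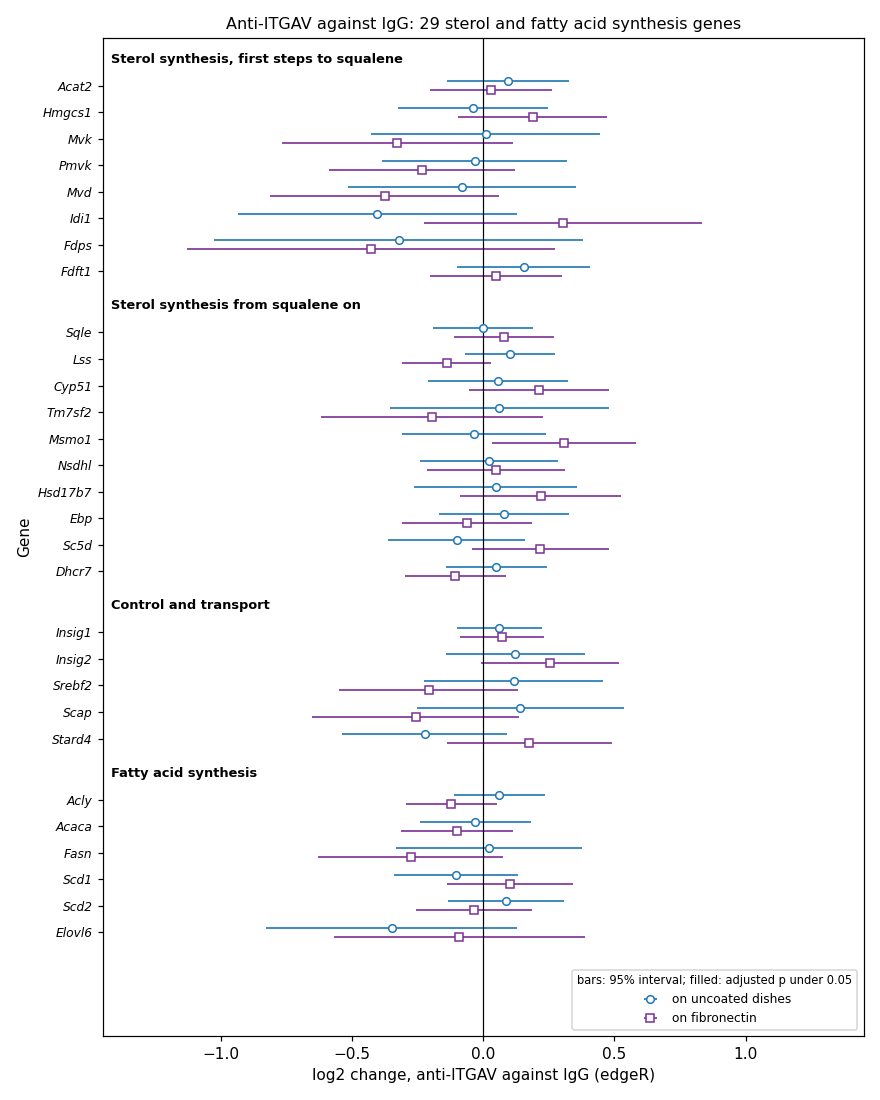
Log2 change, anti-ITGAV against IgG, for each of the 29 genes by role, on uncoated dishes and on fibronectin, from edgeR. Bars are 95% intervals, and no symbol is filled because no member passed an adjusted p of 0.05.

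No member passed the test of whether its change with the coat differed between the antibodies. In the test of the coating by antibody interaction 0 of 29 were called, against 0% of all genes, with 1 member (Lss, -0.24, adjusted p 0.646, edgeR) and 614 of all genes (3.97%) at an unadjusted p under 0.05. The largest interaction was that of Idi1, 0.71 ± 0.36 (adjusted p 0.646), and it was 0.39 without fibronectin_antiITGAV 3. The change of Scd1, called under IgG and not under anti-ITGAV, was therefore not shown to differ between the antibodies, nor were those of Sqle and Hsd17b7, called under anti-ITGAV.

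Within groups the 29 genes did not vary as 1 block, and in several libraries their levels ran along transcript GC content. Over the 406 pairs of members the correlation of deviations from the group means across 16 libraries had a median of 0.00421 and ran from -0.937 to 0.975, a description with no test, in which the libraries share depth and base composition. Among the extreme pairs, Mvd (59% GC) and Msmo1 (44.7%) had r = -0.937, and Srebf2 and Fasn (both 57.9%) had r = 0.975. After a smooth trend on GC content was taken out of each library the values were -0.333 and 0.633, and the median over all pairs was 0.223 (range -0.858 to 0.93). Mvk (56.3% GC) moved less, from r = 0.974 to 0.852 with Srebf2 and from 0.967 to 0.831 with Fasn. In fibronectin_antiITGAV 3 the members' deviations from their means over all 16 libraries ran against GC content (Spearman's rho -0.795 over 29 genes), with Mvd at -1.27 and Idi1 (41.9% GC) at 0.99 on the log2 scale. In uncoated_antiITGAV 1 and fibronectin_IgG 2 they ran with it (rho 0.809 and 0.793).

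**Figure D4:**
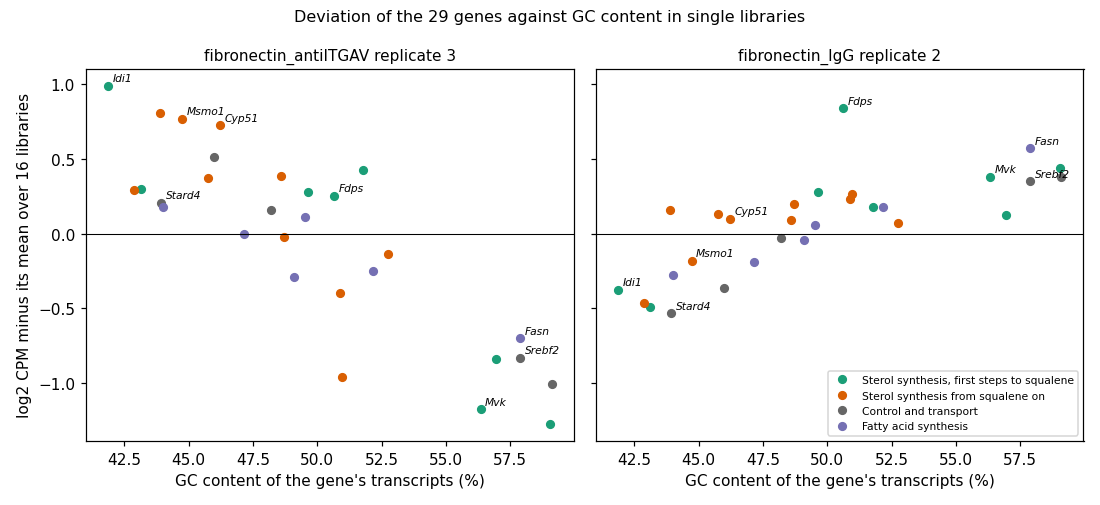
Deviation of each of the 29 genes from its own mean over the 16 libraries (log2 CPM) against the GC content of its transcripts, in fibronectin_antiITGAV replicate 3 and in fibronectin_IgG replicate 2, coloured by role. The GC-rich genes Mvk, Mvd, Srebf2 and Fasn lie low in the first library and high in the second.

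A GC offset in the fit was an alternative setting, chosen like the other tests with earlier results of these data known. With it 3 members were called higher under IgG (Sqle 0.30, Hsd17b7 0.61 and Fasn 0.51) and Scd1 lower (-0.40). The background was 10% of all genes (6.01% higher, 4.03% lower). Fasn, at 57.9% GC, had an SE of 0.06 in that fit against 0.17 without the offset, and adjusted p-values (edgeR) of 3.15e-05 under IgG and 9.05e-05 under anti-ITGAV. In the average over both antibodies 7 members were higher (the same 5, Fdft1 at 0.24 and Msmo1 at 0.23) and 2 lower (Scd1, and Mvk at -0.25), against a background of 20.9% (11.6% higher, 9.32% lower).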

How the data were processed

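Per the labels, polyA RNA was read paired-end (NovaSeq X Plus). The authors deposited a count and an FPKM table, each with 54532 genes in 16 libraries; counts are whole numbers. The submitters' processing notes list the tools HISAT2, StringTie and featureCounts, and as builds GRCm38.p6 and mm10. Which tool did what, in which version, whether strand was used, and how multiply matching reads were treated is not given in the sources used here. Each deposited FPKM was the count over gene length and a library constant, 0.989 to 1.04 times that library's total. FPKM were used for levels between genes only.

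Counts were fitted with edgeR 4.0.16 in R 4.3.3: filterByExpr (minimum count 10), TMM, 1 mean per group over all 16 libraries, robust quasi-likelihood F tests, Benjamini-Hochberg adjustment over 15469 genes, threshold 0.05. CPM use TMM-scaled totals. The median SE of the log2 change for fibronectin under IgG was 0.19. Each edgeR SE was taken as the absolute change over the square root of its F, and the intervals rest on it. Intervals are at 95%. No pair of replicates was closer than sampling noise. Figures used Python 3.11.15 and matplotlib 3.10.9.

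The members, lists and tests were chosen with earlier results of these data known. Library values are printed for the members called in any comparison and, up to 12, for those with the smallest p for fibronectin under IgG; Msmo1 was added after its values were seen. From other lists, called genes are named, or up to 3 with the smallest p. Alternatives were DESeq2 1.42.0, other scaling and filters, each comparison's groups alone, a replicate block, a GC offset on transcript GC content, limma 3.58.1 on log2(FPKM + 1) and log2(FPKM + 0.1), and leaving out each library. Voom quality weights, and the GC offset without fibronectin_antiITGAV 3, were added after the data were seen.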

Additional observations from a re-analysis of the deposited data

Results flagged for a closer look

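In each group of 4 libraries, the highest or lowest library of a gene was marked where its gap to the nearest of the others exceeded Dixon's 95% critical share of the group's range. This marked 9 of 116 gene and group pairs, where chance marks about 1 in 20, and 5 of the 9 were in fibronectin_antiITGAV 3.

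In that library Mvk stood at 9.312 CPM against 18.85 to 20.74 in the other 3 of its group, Acly at 222.8 against 256.4 to 262.6, and Fasn at 89.75 against 171.6 to 180.1. There Cyp51 stood at 117 CPM against 73.23 to 77.75 and Msmo1 at 137.1 against 85.31 to 88.27. In uncoated_IgG 4 Mvk stood at 29.1 CPM against 21.66 to 22.31, and in fibronectin_IgG 4 Cyp51 at 68.93 against 75.26 to 76.01. In uncoated_antiITGAV 2 Msmo1 stood at 82.27 CPM against 68.81 to 70.03, and in uncoated_antiITGAV 4 Ebp at 46.28 against 55.72 to 57.37.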

How the results depend on the processing

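No called member changed sign under any setting, while some medians near 0 did. In the average over both antibodies Hsd17b7, Sqle and Scd1 kept their calls under all 13 other settings that gave them a test and without each of the 16 libraries. Under IgG, members called higher (0) were 3 with DESeq2, 1 with a 1 CPM filter, 2 with the groups alone, 3 with the GC offset, 3 with that offset and a replicate block, 1 with log2(FPKM + 0.1), 6 with voom quality weights and 5 with the GC offset without fibronectin_antiITGAV 3. Members called lower (1) were 0 with upper-quartile scaling, with no filter, with the replicate block and with log2(FPKM + 1) unfiltered. All genes called under IgG were 1059 with DESeq2, 1553 with the GC offset, 1410 with offset and block and 2481 with voom. With the GC offset without fibronectin_antiITGAV 3 they were 2073. Under anti-ITGAV, members called higher (2) were 4 with DESeq2, 1 with upper-quartile scaling, 1 with no filter, 0 with the groups alone and 5 with voom, and 1 was called lower with voom and 1 with the GC offset without that library. The members' median there (0.0385) was -0.0315 with the GC offset and -0.0327 with offset and block. All genes called under anti-ITGAV were 1601 with DESeq2, 251 with the groups alone, 2173 with voom and 1738 with the offset without that library. Averaged, members called higher (5) were 3 with upper-quartile scaling and 3 with log2(FPKM + 1) unfiltered, and lower (1) were 2 with the GC offset, 2 with offset and block, 4 with voom and 2 with the offset without that library. All genes called were then 3240 with the GC offset, 3050 with offset and block, 4128 with voom and 3422 with the offset without that library. Leaving out 1 library at a time gave 0 to 4 higher and 0 to 1 lower under IgG, 1 to 3 higher under anti-ITGAV with a median of -0.0319 to 0.0781, 2 to 6 higher and 1 to 2 lower in the average, and an interaction median (-0.0702) of -0.124 to 0.0211. Genes called in all were then 253 to 1325 under IgG (586), 428 to 1037 under anti-ITGAV (876) and 1325 to 2468 averaged (1831), and 309 to 2481, 251 to 2173 and 1340 to 4128 under the other settings. Libraries with equal replicate numbers were not seen to resemble each other (r -0.301 to 0.277, best with the own number in 6 of 48). The GC trends of single libraries could hide a pairing, so this check cannot exclude it. The replicate block gave 360 genes under IgG and ended the calls of Scd1 there (-0.44, adjusted p 0.0583, edgeR) and of Fasn in the average (adjusted p 0.054). Under anti-ITGAV the call of Hsd17b7 (0.71) was also lost with offset and block (0.51, adjusted p 0.0561, edgeR) and with the offset without fibronectin_antiITGAV 3 (0.44, adjusted p 0.122). The cause of each move was not tested. For most of these settings the share of all genes called in each direction is not printed. The member counts there are therefore no result about the members against all genes. With 4 libraries a group, changes below about 1.5-fold were often not detectable.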
